A study of Homo sapiens with 6 samples.

Results

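The p53 transcriptional targets described here are 34 genes chosen by name, and all 34 were found among the 40488 genes of the table. They were measured in SCC90, an established cell line of a base-of-tongue squamous carcinoma positive for HPV16. The cells were transfected with a scrambled siRNA (siCtrl, 3 libraries) or with an siRNA against ΔNp63, the short form of p63 that lacks the N-terminal transactivation domain (siDNp63, 3 libraries), and RNA was taken 72 h after transfection. Both groups share the cell line, the virus and the transfection reagent. The labels of the siDNp63 libraries put the siRNA dose at 10 nM, while the methods give another dose. For siCtrl the labels give no dose. A single cell line and a single siRNA against ΔNp63 stand behind all values. No source states that the 3 libraries of a group were cultured apart, and the p-values cover only their spread, which can be technical.

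p53 is a transcription factor that stress such as DNA damage stabilises. It binds paired half-sites near its target genes and switches on genes for cell cycle arrest, DNA repair, apoptosis and metabolic control, together with MDM2, which ubiquitinates p53 and closes a feedback loop. In cells with high-risk papillomavirus the viral E6 protein recruits the ubiquitin ligase E6AP and sends p53 for degradation, which keeps p53 activity low. p63 belongs to the same protein family and recognises closely related DNA sites. ΔNp63 is the main form in basal squamous cells and can both repress and activate genes through such sites. The comparison of siDNp63 with siCtrl asks how the levels of p53 targets differ when its relative ΔNp63 is reduced in an HPV16-positive line. The values are RNA levels of host genes only, and p53 protein and E6 are not analysed here.

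TP63 itself had 42319, 44204 and 43700 normalized counts in the 3 siCtrl libraries and 15520, 14474 and 15414 in the 3 siDNp63 libraries. A normalized count is the expected number of reads of a gene after TMM scaling (trimmed mean of M values) between libraries. TP63 was lower in every siDNp63 library, by 1.52 on the log2 scale (log2 fold change -1.52, SE 0.04, adjusted p = 7.59e-07, quasi-likelihood test of edgeR, Benjamini-Hochberg adjusted, which stands behind every adjusted p given here unless another test is named). The table sums all transcripts of a gene, so ΔNp63 and the longer TAp63 were not told apart. Library totals lay between 35716277 and 52598831 expected counts. The 12 epithelial marker genes summed to 6029 to 6099 TPM (a level scaled for transcript length and for the library total) in siCtrl and to 7336 to 7560 TPM in siDNp63. None of them stayed under 1 TPM in every library. KRT6A held much of the sum, with a mean of 3071 TPM in siCtrl and 3694 TPM in siDNp63, while KRT14 had 0.524 and 1.49 TPM. Of the epithelial markers, 6 were higher, 1 was lower (ITGB4, log2 fold change -0.83, adjusted p = 0.00684) and 5 did not pass, beside 18.4% higher and 15.2% lower of all genes. The 10 leukocyte markers summed to 15.2 to 16.5 TPM in siCtrl and to 12.2 to 12.8 TPM in siDNp63, with 2 of them at 0 in every library. The 12 fibroblast and endothelial markers summed to 11.4 to 13.7 TPM in siCtrl and to 18.9 to 21.3 TPM in siDNp63, with 1 at 0 and 6 under 1 TPM in every library. Of these 12 markers, 3 were higher, 1 was lower, 3 did not pass and 5, the endothelial CDH5 among them, were not tested. Of all genes, 18.4% were higher and 15.2% lower. The endothelial markers PECAM1 (log2 fold change 2.39, adjusted p = 2.4e-05) and KDR (2.36, adjusted p = 1.88e-06) were among those that rose. The lower one was DCN (-1.32, adjusted p = 0.0284). The single markers given here were named after their values were seen. None of the 3 sums overlapped between the groups, and their part in the changes of the p53 targets was not tested. Library siDNp63 replicate 1 stood apart from the other siDNp63 libraries on the second principal component, which held 20.2% of the variance (scores -39.1 against 25.6 and 24.8), and the members it bears on most are given with and without it. As these are bulk samples, fewer cells of a kind and less RNA per cell cannot be told apart.

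Promoter sequence was examined first, because p53 and p63 read related DNA words. RefSeq promoter windows of GRCh38.p14, from 250 bases before to 50 bases after an annotated start, matched 28 of the 34 genes (38 windows). The p53 half-site searched has 10 bases, namely 3 purines, C, 2 bases that are each A or T, G and 3 pyrimidines, and since it reads the same on both strands a single search covers both. An exact half-site lay in 5 of 38 member windows (13.2%) and in 6.63% of all 35116 windows. A pair of adjacent half-sites with the C and G of each core kept and at most 3 mismatches, a search added after the exact one had been run, lay in 7 of 38 member windows (18.4%), belonging to 6 genes, and in 1.12% of all windows. No member window held 2 exact half-sites with a spacer of 0 to 13 bases (0.0285% of all windows). A match is a description of letters and not a measured binding site. The members were chosen as p53 targets, so their larger shares do not count as a result about them.

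The matches are printed because they show which members carry the letters of a p53 site next to a start, 5′ to 3′ on the gene's strand, with the half-site or the adjacent pair in capitals and the remaining bases in lower case. Each name is followed by the position, the kind of match and the sequence.
PLK2 (chr5:58460199-58460228, minus strand, exact half-site starting 132 bases before the start): tggcgggacaAGACTTGCTTcccggccacg
SESN1 (chr6:109009013-109009042, minus strand, pair with 3 mismatches starting 49 bases before a start inside intron 1 of the canonical transcript): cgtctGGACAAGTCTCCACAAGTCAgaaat
MDM2 (chr12:68808918-68808947, plus strand, pair with 2 mismatches starting 94 bases before the second start, in intron 1): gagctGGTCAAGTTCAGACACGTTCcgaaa
RPS27L (chr15:63157522-63157551, minus strand, pair with 3 mismatches starting 69 bases before the start): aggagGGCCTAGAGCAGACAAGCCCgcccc
AEN (chr15:88621301-88621330, plus strand, pair with 2 mismatches starting 34 bases before the start): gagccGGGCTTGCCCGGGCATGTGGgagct
FDXR (chr17:74872991-74873020, minus strand, pair with 3 mismatches starting 21 bases before the start): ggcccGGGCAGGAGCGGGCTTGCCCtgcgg
GDF15 (chr19:18386181-18386207, plus strand, pair with 3 mismatches starting 28 bases after the start, inside a coding exon): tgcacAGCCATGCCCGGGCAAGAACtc

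Of these 7 genes, MDM2, RPS27L, AEN and GDF15 were higher in siDNp63 at an adjusted p under 0.05, and PLK2, SESN1 and FDXR did not pass the test. These 4 stand beside 10 of the 33 members tested and 18.4% of all genes tested. Alternative settings ended the call of GDF15 in 10 cases and that of AEN in 8. A link between the matches and the changes was not tested. BTG2, the member with the largest change, had no match in its window, which says only that these letters are not in those bases.

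The targets were expressed over a wide range. The mean over the 6 libraries was over 100 TPM for 5 members, between 10 and 100 TPM for 18 and under 10 TPM for 11, with a median of 19.6 TPM. PERP, a desmosome-associated membrane protein of squamous epithelium that p53 and p63 both induce, was the highest at 533 to 625 TPM. SFN, the epithelial 14-3-3σ protein that holds cells in G2, followed at 272 to 464 TPM. MDM2 came next at 128 to 201 TPM. Among the members that were tested the lowest was SPATA18, which acts in the removal of damaged mitochondria, at 0.194 to 1.30 TPM. EDA2R (ENSG00000131080, chromosome X, 66595637 to 66639298, minus strand), the receptor of an ectodysplasin, was lower still, with 1, 3 and 0 expected counts in siCtrl and 0, 2 and 2 in siDNp63, and was filtered out before testing. At most 3 counts in a library give no usable comparison for it.

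**Figure D1:**
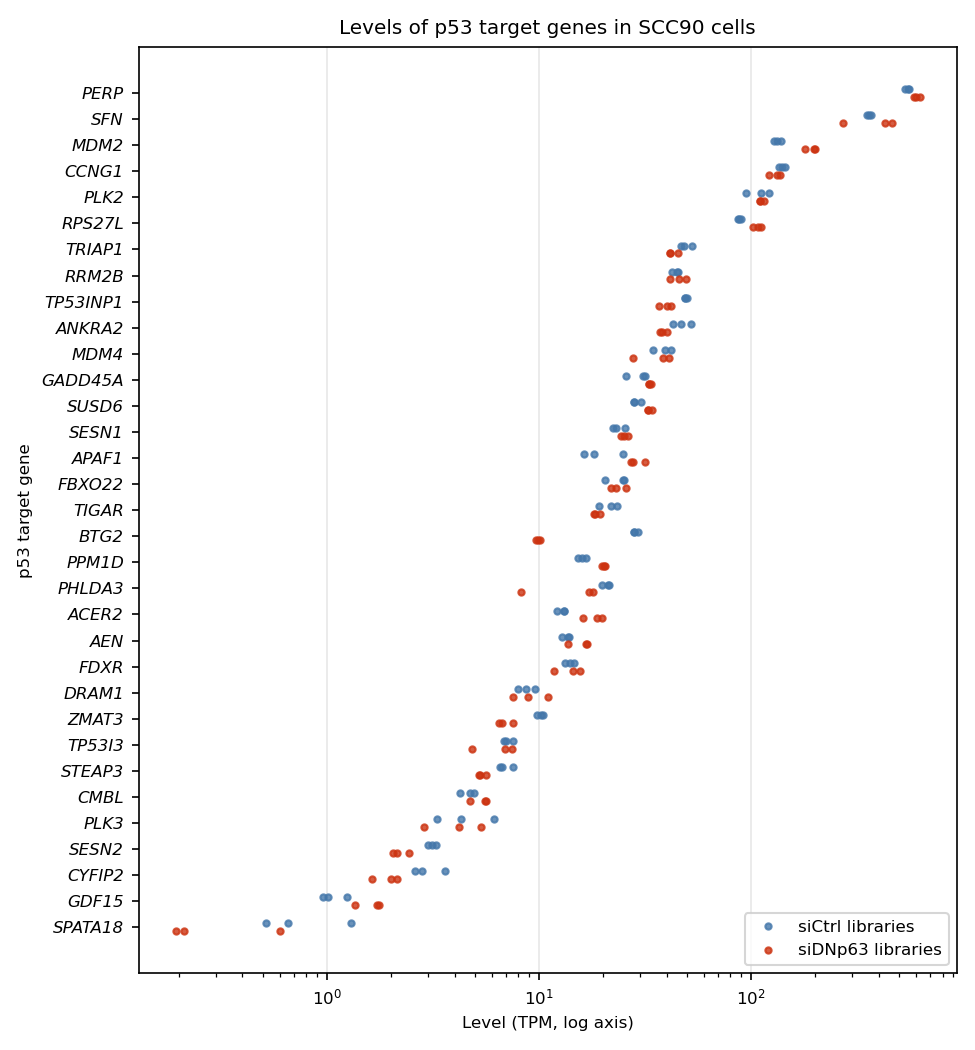
Level of each p53 target in TPM (log axis) in the 3 siCtrl libraries (blue) and the 3 siDNp63 libraries (red), 1 dot per library, ordered by mean. PERP lies highest at 533 to 625 TPM and SPATA18 lowest at 0.194 to 1.30 TPM. EDA2R is left out because of its low mean of 0.0242 TPM.

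Across the members the changes went both ways. Of the 33 tested, 10 were higher in siDNp63, 7 were lower and 16 did not pass an adjusted p of 0.05. The called share was 51.5%, beside 33.6% of all 17257 genes tested (18.4% higher and 15.2% lower). Among genes with a mean of at least 50 normalized counts the share was 39.4%, and 15 of the 31 members at that level were called. The median log2 fold change of the members was 0.06, beside -0.02 for all genes, and their median absolute log2 fold change was 0.22, beside 0.21. Their median SE was 0.07, beside 0.09. With the study's fold threshold (absolute log2 fold change over 1), 1 member was lower and 0 were higher, while 4.06% of all genes passed both thresholds. The 3 values of one group lay wholly above or below those of the other for 22 members, 13 of them higher and 9 lower in siDNp63, and for 49.4% of all genes (24.7% higher and 24.7% lower).

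The split between higher and lower depended on the scaling. With library totals in place of TMM factors, 9 members were higher and 13 lower. MDM4, CCNG1, TRIAP1, TIGAR, FBXO22 and ANKRA2 then passed on the lower side and AEN no longer passed. All genes moved in the same direction, from 3177 higher and 2626 lower to 2330 and 4117. Without siCtrl replicate 2, 8 members were higher and 4 lower, beside 2499 and 1911 of all genes. Without siDNp63 replicate 1, 11 members were higher and 10 lower, beside 3645 and 3238 of all genes.

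**Figure D2:**
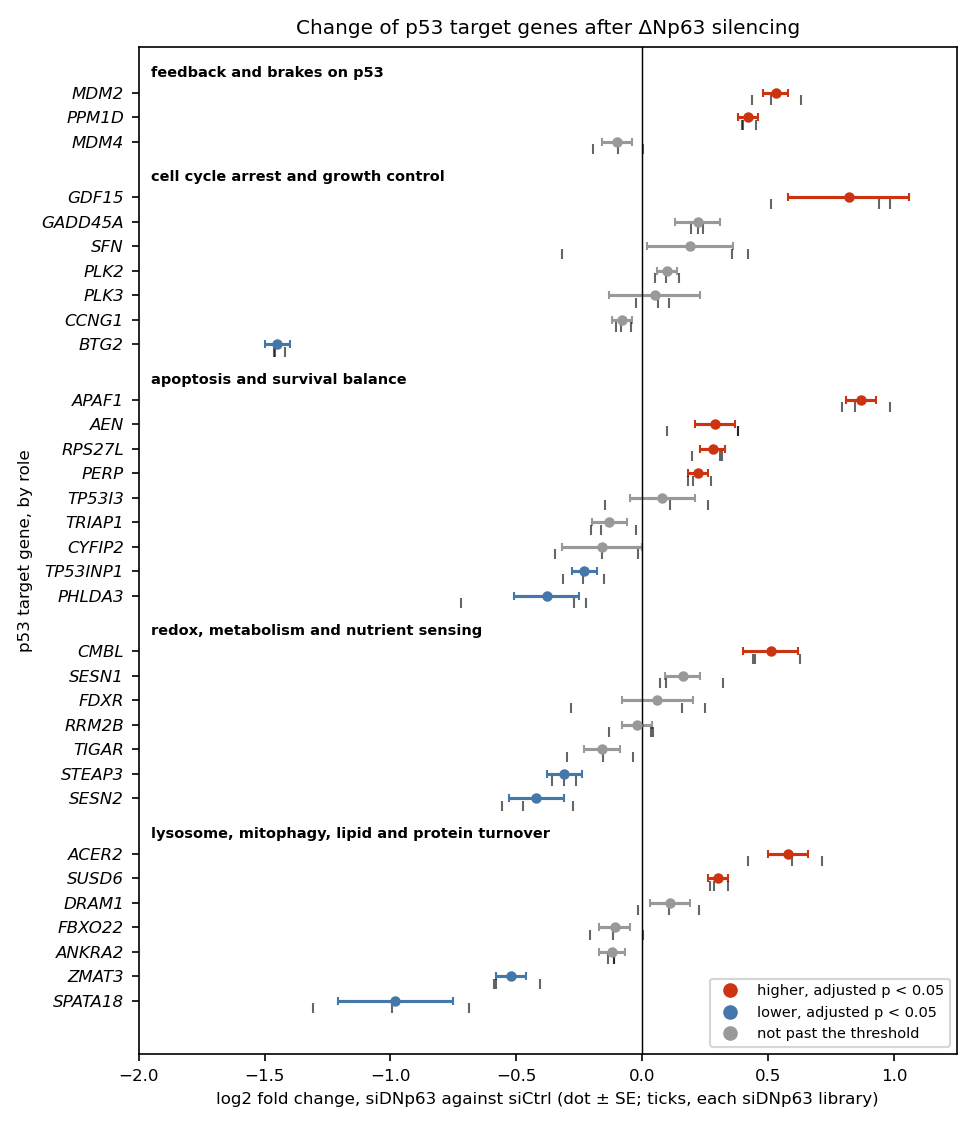
Log2 fold change of siDNp63 against siCtrl for the 33 tested members, grouped by role, with dots and bars for the estimate ± SE (n = 3 against 3) and ticks for each siDNp63 library against the siCtrl mean. BTG2 stands alone at -1.45, APAF1 is the highest at 0.87 on this scale of normalized counts, and the ticks of SFN lie on both sides of 0.

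Of the 3 members that act in feedback on p53, 2 were higher in siDNp63, beside 18.4% of all genes. MDM2 (ENSG00000135679, chromosome 12, 68808177 to 68845544, plus strand), the ubiquitin ligase that p53 induces and that degrades p53, had 10021, 9711 and 9792 normalized counts in siCtrl and 15237, 13323 and 14028 in siDNp63. Every siDNp63 library lay above every siCtrl library, and the log2 fold change was 0.53 (SE 0.05, adjusted p = 0.000201). PPM1D, the WIP1 phosphatase that switches off p53 and its upstream kinases, had 1350, 1352 and 1377 normalized counts in siCtrl and 1861, 1789 and 1792 in siDNp63, again without overlap (log2 fold change 0.42, SE 0.04, adjusted p = 0.000242). MDM4, the MDM2 partner that masks the p53 transactivation domain, had 5059, 4851 and 4682 counts in siCtrl and 4875, 4242 and 4553 in siDNp63. Its groups overlapped and its log2 fold change of -0.10 did not pass (adjusted p = 0.247), although without siDNp63 replicate 1 it was -0.15 with an adjusted p of 0.0435.

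Among the 7 members of cell cycle arrest and growth control, 1 was higher, 1 was lower and 5 did not pass. Of all genes tested, 18.4% were higher and 15.2% lower. BTG2 (ENSG00000159388, chromosome 1, 203305491 to 203309602, plus strand), an antiproliferative protein that recruits the CCR4-NOT deadenylase, had 2027, 2130 and 2042 normalized counts in siCtrl and 773, 752 and 749 in siDNp63. The siDNp63 libraries sat tightly together and far below siCtrl. BTG2 fell by 1.45 on the log2 scale (SE 0.05, 2.73-fold, adjusted p = 1.42e-06) and was the only member past the fold threshold. In TPM its level went from 28.5 ± 0.734 to 9.90 ± 0.219 (SD, n = 3).

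GDF15 (ENSG00000130513, chromosome 19, 18374731 to 18389176, plus strand), a secreted TGFβ-family cytokine of stressed cells, was near the lower limit of the data, with 26.9, 21.8 and 21.4 normalized counts in siCtrl and 33.3, 46.2 and 44.8 in siDNp63. The groups did not overlap and the log2 fold change was 0.82 (SE 0.24, adjusted p = 0.0296). This call did not hold when any library other than siDNp63 replicate 1 was left out. Without siCtrl replicates 1, 2 and 3 in turn the adjusted p was 0.0534, 0.0964 and 0.0971, and without siDNp63 replicates 2 and 3 it was 0.0869 and 0.0859. Without siDNp63 replicate 1 the log2 fold change was 0.95 (adjusted p = 0.0132). The call was also lost with DESeq2 (adjusted p = 0.0962), and on the log2(TPM + 1) scale the change was 0.34 (adjusted p = 0.0519, limma).

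SFN had 11346, 11662 and 11279 normalized counts in siCtrl and 9152, 14649 and 15303 in siDNp63. Replicate 1 of siDNp63 lay below all siCtrl libraries and the other siDNp63 libraries lay above them. The log2 fold change was 0.19 (SE 0.17, adjusted p = 0.431) with all libraries and 0.39 (adjusted p = 0.000142) without that replicate. GADD45A, a stress sensor that binds PCNA and p21, had 867, 694 and 852 counts in siCtrl and 939, 952 and 919 in siDNp63, which did not overlap but did not pass (log2 fold change 0.22, adjusted p = 0.0984). The cyclin CCNG1 (-0.08), and the polo-like kinases PLK2 (0.10) and PLK3 (0.05), had log2 fold changes close to 0 with adjusted p of 0.204, 0.0976 and 0.856.

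Of the 9 tested members that bear on apoptosis and survival, 4 were higher, 2 were lower and 3 did not pass. The shares over all genes were 18.4% higher and 15.2% lower. APAF1 (ENSG00000120868, chromosome 12, 98645290 to 98735433, plus strand), the scaffold of the apoptosome that activates caspase-9, had 2268, 2200 and 2317 normalized counts in siCtrl and 4470, 3915 and 4059 in siDNp63. The groups were widely separated, with a 1.83-fold gain (log2 fold change 0.87, SE 0.06, adjusted p = 2.02e-05). On the log2(TPM + 1) scale the gain was smaller, 0.54 (adjusted p = 0.0422, limma), from 19.8 ± 4.49 to 29.0 ± 2.45 TPM (SD, n = 3). Its exons share 750 bases with those of ANKS1B on the other strand, which was at 1.45 TPM beside 24.4 TPM for APAF1.

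PERP (ENSG00000112378, chromosome 6, 138088505 to 138107419, minus strand) had 62369, 61171 and 64364 normalized counts in siCtrl and 75645, 72013 and 71105 in siDNp63. The groups did not overlap, and the log2 fold change was 0.22 (SE 0.04, adjusted p = 0.00261), or 0.13 when scaled by library totals (adjusted p = 0.0109). RPS27L, a ribosomal protein homologue that binds MDM2, had 1153, 1104 and 1095 counts in siCtrl and 1383, 1393 and 1283 in siDNp63 (log2 fold change 0.28, SE 0.05, adjusted p = 0.00608). AEN, a nuclease that cuts DNA in dying cells, had 1134, 1176 and 1112 counts in siCtrl and 1222, 1484 and 1484 in siDNp63. Its log2 fold change was 0.29 (SE 0.08, adjusted p = 0.0249), with replicate 1 of siDNp63 the closest to siCtrl. Leaving out that replicate gave 0.38 with an adjusted p of 0.000492, while leaving out siCtrl replicates 1, 2 and 3 gave 0.105, 0.0779 and 0.114 and leaving out siDNp63 replicates 2 and 3 gave 0.074 and 0.0905.

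TP53INP1, a nuclear cofactor that promotes p53 phosphorylation and autophagy, was lower, with 7721, 7599 and 7616 normalized counts in siCtrl and 6874, 6145 and 6500 in siDNp63 (log2 fold change -0.23, SE 0.05, adjusted p = 0.00658). Its exons share 225 bases with those of NDUFAF6 on the other strand, at 58.1 TPM beside 44.4 TPM for TP53INP1, and the counting did not use strand, so a part of these reads could belong to either gene. PHLDA3, an inhibitor of AKT at the membrane, had 796, 827 and 754 counts in siCtrl and 481, 657 and 678 in siDNp63. Its log2 fold change of -0.38 (SE 0.13, adjusted p = 0.0497) lay at the threshold, with the lowest value in siDNp63 replicate 1. Without that replicate it was -0.25 (adjusted p = 0.0181), and without siDNp63 replicate 2 or siCtrl replicates 1, 2 and 3 the adjusted p was 0.055, 0.138, 0.156 and 0.106.

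The quinone oxidoreductase TP53I3 (log2 fold change 0.08, adjusted p = 0.651), the survival factor TRIAP1 (-0.13, adjusted p = 0.219) and the actin regulator CYFIP2 (-0.16, adjusted p = 0.484) did not pass. Without siDNp63 replicate 1 the value of TP53I3 was 0.19 (adjusted p = 0.193). TP53I3 shares 80 exon bases with FAM228B on the other strand, which was at 9.23 TPM beside 6.76 TPM.

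**Figure D3:**
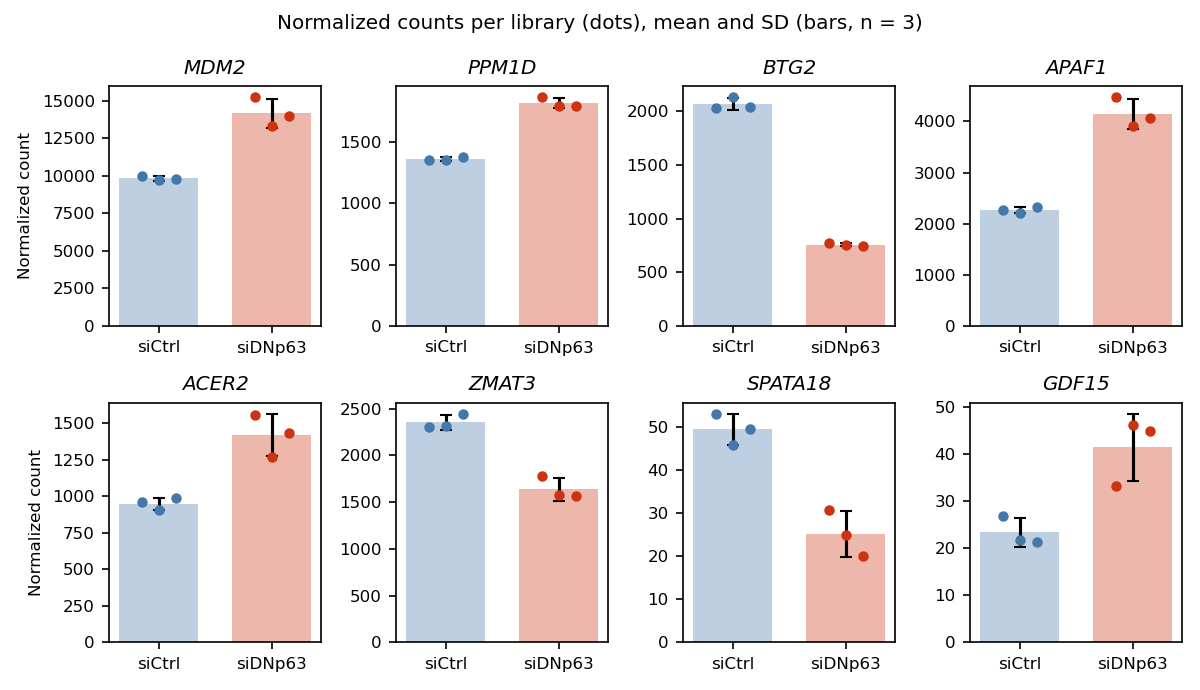
Normalized counts of 8 members in each library (dots), with bars for the mean and error bars for the SD of the 3 libraries of siCtrl (blue) and siDNp63 (red). BTG2, ZMAT3 and SPATA18 sit lower in all siDNp63 libraries and MDM2, PPM1D, APAF1, ACER2 and GDF15 sit higher; GDF15 and SPATA18 rest on fewer than 60 counts per library.

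Among the 7 members of redox control, metabolism and nutrient sensing, 1 was higher, 2 were lower and 4 did not pass. All genes tested had 18.4% higher and 15.2% lower. CMBL, a cytosolic hydrolase, had 233, 277 and 234 normalized counts in siCtrl and 383, 338 and 336 in siDNp63, without overlap (log2 fold change 0.51, SE 0.11, adjusted p = 0.00897). On the log2(TPM + 1) scale its change was 0.16 (adjusted p = 0.335, limma). STEAP3, an endosomal iron reductase, had 723, 811 and 730 counts in siCtrl and 589, 609 and 629 in siDNp63 (log2 fold change -0.31, SE 0.07, adjusted p = 0.0133, and 0.0545 without siCtrl replicate 2).

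SESN2, a leucine sensor upstream of mTORC1, had 292, 306 and 284 normalized counts in siCtrl and 212, 243 and 200 in siDNp63. It was lower in every siDNp63 library (log2 fold change -0.42, SE 0.11, adjusted p = 0.0171), but the adjusted p was 0.054, 0.0657 and 0.0613 without siCtrl replicate 1, siCtrl replicate 2 and siDNp63 replicate 3. Its expected counts are identical in all 6 libraries to those of another gene entry without a name (ENSG00000285069), as when reads are split equally between copies, so its level is uncertain. Its relative SESN1 had 1497, 1537 and 1542 counts in siCtrl and 1904, 1628 and 1601 in siDNp63, which did not overlap and did not pass (log2 fold change 0.16, adjusted p = 0.115). The glycolytic regulator TIGAR (-0.16, adjusted p = 0.121), the mitochondrial ferredoxin reductase FDXR (0.06, adjusted p = 0.759) and RRM2B, the p53-inducible subunit of ribonucleotide reductase (-0.02, adjusted p = 0.862), did not pass. Without siDNp63 replicate 1, TIGAR passed (-0.22, adjusted p = 0.0147) and FDXR was at 0.20 (adjusted p = 0.0665).

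Of the 7 members that act in lysosomes, mitophagy, lipid and protein turnover or RNA binding, 2 were higher, 2 were lower and 3 did not pass. The shares over all genes were 18.4% higher and 15.2% lower. ACER2 (ENSG00000177076, chromosome 9, 19409009 to 19452505, plus strand), the Golgi ceramidase, had 959, 904 and 985 normalized counts in siCtrl and 1555, 1271 and 1434 in siDNp63. All siDNp63 libraries lay above siCtrl (log2 fold change 0.58, SE 0.08, adjusted p = 0.00106). SUSD6, a membrane protein, had 3948, 3915 and 3946 counts in siCtrl and 4749, 4792 and 4981 in siDNp63 (log2 fold change 0.30, SE 0.04, adjusted p = 0.000528).

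ZMAT3, an RNA-binding zinc finger protein that regulates splicing, went the other way, with 2299, 2318 and 2443 normalized counts in siCtrl and 1776, 1573 and 1563 in siDNp63 (log2 fold change -0.52, SE 0.06, adjusted p = 0.000417). SPATA18 (ENSG00000163071, chromosome 4, 52051304 to 52097299, plus strand) had 52.9, 45.8 and 49.6 counts in siCtrl and 30.7, 24.8 and 20.0 in siDNp63. The groups were apart, and SPATA18 fell by 0.98 on the log2 scale (SE 0.23, adjusted p = 0.0122). Without siDNp63 replicate 1 it fell by 1.13 (adjusted p = 0.00617), which is past the fold threshold, as it also was without siCtrl replicate 2 (-1.04, adjusted p = 0.03). On the log2(TPM + 0.1) scale it was -1.12 and did not pass (adjusted p = 0.114, limma). The lysosomal membrane protein DRAM1 (0.11, adjusted p = 0.365), the F-box protein FBXO22 (-0.11, adjusted p = 0.235) and the ankyrin repeat protein ANKRA2 (-0.12, adjusted p = 0.0907) did not pass. FBXO22 passed without siDNp63 replicate 1 (-0.16, adjusted p = 0.0293), and ANKRA2 shares 225 exon bases with UTP15 on the other strand, at 48.9 TPM beside 42.9 TPM.

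Replicate 1 of siDNp63 bore on several of these values. It lay more than 0.3 on the log2 scale below the mean of the other siDNp63 libraries for SFN, GDF15, PHLDA3, TP53I3 and FDXR and above it for SPATA18. Without it, 4 more members passed (MDM4, SFN, TIGAR and FBXO22, given above) and 0 of the 17 calls were lost. Of those 17, 10 also passed under all 14 alternative settings, 7 of them higher (MDM2, PPM1D, APAF1, PERP, RPS27L, ACER2 and SUSD6) and 3 lower (BTG2, TP53INP1 and ZMAT3).

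The regulators that set p53 abundance and activity were compared next, from a list of 32 genes that were all tested. UBE3A, which encodes E6AP and was named after its value was seen, had a log2 fold change of 0.06 (SE 0.04, adjusted p = 0.289). Altogether 10 of the regulators were higher and 7 lower, beside 18.4% and 15.2% of all genes, with a median log2 fold change of 0.00. The 7 lower genes include TP63, the target of the siRNA, so its place among them was set by the experiment. With library totals in place of TMM factors, 5 regulators were higher and 13 lower, beside 2330 and 4117 of all genes. With limma on log2(TPM + 1), 2 regulators were higher, beside 1668 of all genes. Those with the smallest p after TP63 were the acetyltransferases EP300 (0.47, adjusted p = 5.46e-05) and CREBBP (0.21, adjusted p = 0.00277), which are coactivators of p53, and the autophagy protein TP53INP2 (0.33, adjusted p = 0.000444). The family member TP73, chosen after its value was seen, was lower (-0.48, adjusted p = 0.0151).

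A second list of 54 other p53 targets, 51 of them tested, held 18 lower genes, 9 higher genes and 24 that did not pass, beside 15.2% lower and 18.4% higher of all genes, and had a median log2 fold change of -0.13. On the log2(TPM + 1) scale 5 were higher, while over all genes the higher count went from 3177 to 1668. The 4 genes with the smallest p were HES2, CEL, POLH and SERPINB5. HES2, a transcriptional repressor, had 1507, 1448 and 1538 normalized counts in siCtrl and 452, 524 and 552 in siDNp63 (log2 fold change -1.55, adjusted p = 8.86e-06). CEL, a lipase, was at -1.44 (adjusted p = 5.32e-05) and POLH, the translesion polymerase η, at -0.54 (adjusted p = 6.09e-05). SERPINB5, or maspin, an epithelial serpin, was higher at 0.54 (adjusted p = 0.000105).

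Classical arrest, repair and death targets from this second list were named after their values were seen. CDKN1A, which encodes the cyclin-dependent kinase inhibitor p21, had 5753, 6058 and 5824 normalized counts in siCtrl and 4995, 5275 and 5094 in siDNp63, and was lower in each (log2 fold change -0.20, adjusted p = 0.00652). The nucleotide excision repair genes XPC (-0.30, adjusted p = 0.000633) and DDB2 (-0.32, adjusted p = 0.000905) and the death receptor TNFRSF10B (-0.32, adjusted p = 0.00126) were lower as well. The pro-apoptotic BCL-2 family genes BAX (-0.17, adjusted p = 0.295), BBC3 (0.02, adjusted p = 0.967) and PMAIP1 (-0.20, adjusted p = 0.141) and the death receptor FAS (-0.58, adjusted p = 0.35) did not pass. BBC3 had only 16.6 to 32.1 normalized counts per library (SE 0.33) and FAS 14.6 to 47.8 (SE 0.43), so a change in either could have been missed.

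**Figure D4:**
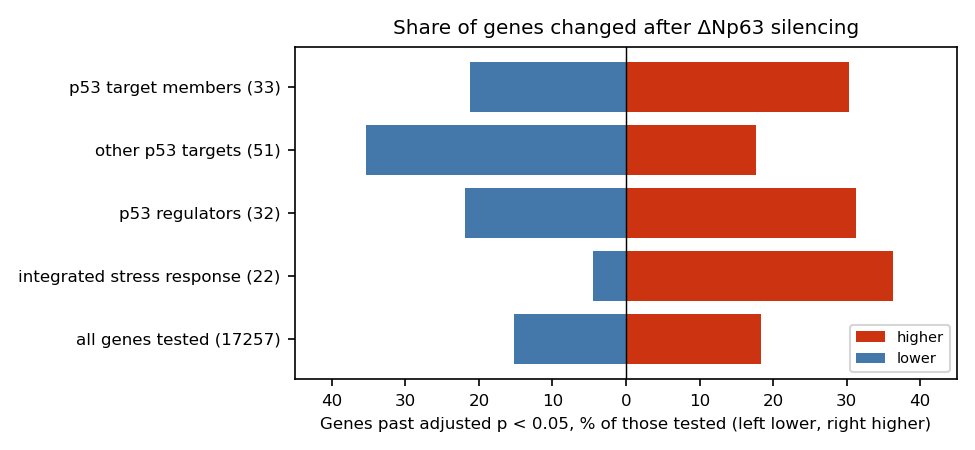
Percent of tested genes past an adjusted p of 0.05, higher in siDNp63 to the right (red) and lower to the left (blue), for the members, the other lists and all genes, with the number tested in parentheses. The 33 members split into 10 higher and 7 lower, the other p53 targets into 9 and 18, and all 17257 genes into 18.4% and 15.2%.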

How the data were processed

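RNA was sequenced in 6 SCC90 libraries (3 siCtrl, 3 siDNp63) made with a stranded poly(A) kit. Per the submitters' processing notes and the methods, reads were demultiplexed with bcl2fastq 2.17.1.14 and quantified with kallisto 0.46.2 (build hg38) at default options, which do not use strand. No source used here names the annotation release. The authors deposited expected counts, which are kallisto estimates added up per Ensembl gene, and TPM, which they normalised to transcript length. Expected counts were rounded, filtered with edgeR 4.0.16 (filterByExpr, minimum count 10, 17257 genes left), scaled by TMM and fitted by its quasi-likelihood test (R 4.3.3) with the group as the only term. Adjusted p under 0.05 was called. SDs are over 3 libraries. Levels between genes are in TPM. Library totals of 35716277 to 52598831 counts leave genes with few counts imprecise.

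The members and lists were chosen with earlier results of these data known. Members past the test and an absolute log2 fold change of 0.58, MDM2 and the highest and lowest members are given in full, the others more briefly. Of other genes, TP63 and up to 4 per list by p were to be named; further ones are marked in the text as named after their values were seen, and some are not reported here. Alternatives were RLE scaling, library size only, no filter, a mean of at least 50 counts, DESeq2 1.42.0, limma 3.58.1 on log2(TPM + 1) and log2(TPM + 0.1), a replicate block and each library left out. The search for adjacent half-sites was added after the windows had been searched.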

Additional observations from a re-analysis of the deposited data

How the results depend on the processing

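No value changed sign with a call. Over the 14 alternatives the single-gene values kept their side of the threshold in 435 cases, gained a call in 16 and lost it in 37. The members called higher (10) stayed within 7 to 11. Members called lower (7) were 13 with library size only and 4 to 10 when a library was left out, and those past the fold threshold (1) were 2 and 1 to 2. With library size only, the regulators were 5 higher and 13 lower, 3 stress response genes and 4117 of all genes were lower, and the medians were -0.022 for members and -0.109 for all genes. With limma on log2(TPM + 1) and log2(TPM + 0.1), the other p53 targets higher were 5 and 5, regulators higher 2 and 2, stress response genes higher 5 and 5 and lower 2 and 2, all genes higher 1668 and 1678, the member median 0.006 and 0.006 and the median of all genes -0.059 and -0.082, and past the fold threshold 148 higher and 113 lower genes remained on the first scale. Stress response genes lower were 2 without a filter, with a mean of at least 50 counts and with DESeq2. The median of all genes was -0.019 with RLE scaling, no filter and DESeq2, and -0.016 with the stricter filter, where 170 genes were lower past the fold threshold. With a library left out, the regulators were 6 to 10 higher and 3 to 11 lower, stress response genes lower 1 to 2, the member median 0.014 to 0.093 and the median of all genes -0.028 to -0.016. The replicate block, a fit with the replicate number as a term, gave 9 higher and 6 lower members, losing GDF15 (adjusted p = 0.0872) and PHLDA3 (adjusted p = 0.0518), and a median of all genes of -0.026. Same-numbered libraries did not deviate together (correlations -0.012, 0.017 and 0.027), and no pairing was used in the main fit. Deviations from a mean of 3 libraries cannot decide whether libraries of the same number were handled together. The causes of these shifts were not tested. Depth limits EDA2R, GDF15 and SPATA18, and in the second list of p53 targets also TP53AIP1, BBC3 and FAS.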

Other observations

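A list of 22 stress response genes held 8 higher genes, 1 lower gene and 13 that did not pass, beside 18.4% higher and 15.2% lower of all genes. The list holds targets of the stress transcription factors ATF4 and CHOP, which also induce the p53 target SESN2. It includes the genes of both factors, with ATF4 among the higher ones. SLC7A11, the cystine importer, had the largest change, with a log2 fold change of 1.64 (adjusted p = 9.7e-06, edgeR's quasi-likelihood test). VLDLR, a lipoprotein receptor, was at 0.83 (adjusted p = 6.82e-06) and the transcription factor ATF3 at 0.99 (adjusted p = 3.13e-05). The lower gene was SLC7A5, a transporter of large neutral amino acids (-0.90, adjusted p = 0.000159). ATF4 itself was at 0.26 (adjusted p = 0.00473) and DDIT3, which encodes CHOP, at -0.02 (adjusted p = 0.915), both chosen after their values were seen.

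Further genes of the second list of p53 targets were also named after their values were seen. GLS2, the mitochondrial glutaminase, was lower, with a log2 fold change of -0.74 (adjusted p = 0.000179). ALOX5, a lipoxygenase, was higher at 0.90 (adjusted p = 0.00153), as was TP53AIP1, a mitochondrial apoptosis protein, at 0.87 with an adjusted p of 0.0485. In the same list the decoy receptor TNFRSF10D was higher (0.36, adjusted p = 0.00274), while the signalling receptors TNFRSF10A (-0.20, adjusted p = 0.0271) and TNFRSF10B, described above, were lower.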
